A study of Homo sapiens with 4 samples.

Results

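IL24 and the 3 receptor chains through which it signals, IL20RA, IL20RB and IL22RA1, were followed on 4 Illumina HumanHT-12 V4 BeadChip arrays. The members were taken by gene name, and these 4 genes, of 30562 genes named on the array, carried 6 probes, 3 for IL24 and 1 for each chain. IL24 was chosen by its ratio of GANT61 over DMSO on these arrays and by the disagreement of its probes, so its values in that contrast are a description and carry no test. The arrays came from 2 established human lines, each grown with the solvent DMSO on 1 array and with 20 µM GANT61 for 48 h on the other. ES2 is commonly described as an ovarian clear cell carcinoma line and H4 as a neuroglioma line, whereas the labels call both an adenocarcinoma of the ovary from ascites. GANT61 is a small molecule that blocks GLI1 and GLI2, the transcription factors that carry out Hedgehog signalling, and the series asks whether that block slows cancer cells through autophagy. With 1 array per line and treatment there is no replicate, no standard error and no p-value in any comparison below. How precise any value is depends on these 4 arrays alone.

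IL24, first described as melanoma differentiation-associated gene 7, is a secreted cytokine of the IL-20 branch of the IL-10 family. In the body it is made mainly by activated immune cells and keratinocytes. It binds pairs of receptor chains, either IL20RA with IL20RB or IL22RA1 with IL20RB, and these signal through JAK kinases to STAT3. Forced expression of IL24 has also been reported to stress the endoplasmic reticulum and to kill tumour cells from within, without the receptors.

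Markers of the lines gave a mixed picture. Of 7 Müllerian and epithelial markers, KRT7, KRT8 and KRT18 were detected on both ES2 arrays. In H4, KRT18 was detected on both arrays, KRT8 on 1 and KRT7 on neither. PAX8, WT1, EPCAM and MUC16 were detected on no array. Of 6 glial and neural markers, OLIG2, NCAM1, SLC1A3 and TUBB3 were detected on both H4 arrays, and GFAP and SOX10 on none. SLC1A3 and TUBB3 were detected on both ES2 arrays as well, and OLIG2 and NCAM1 on neither. Of 4 mesenchymal markers, VIM and CDH2 were detected on every array, S100A4 on both H4 arrays only and FN1 on 1 ES2 array only. Of the cell types that commonly make IL24, the blood cell markers PTPRC, CD3E and CD14 were detected on no array, and CD68 was detected on all 4. The keratinocyte keratins KRT5, KRT14 and KRT1 were detected on none, and TP63 was detected on both ES2 arrays and on no H4 array. Detection here means a deposited detection p-value under 0.01, and because the columns that hold it name a line but no treatment, it is given as the number of a line's 2 arrays.

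IL24 was higher with GANT61 in H4 by all 3 of its probes. On the probe ILMN_1774685 the deposited intensity was 98.7 in ES2 with DMSO, 170.0 in ES2 with GANT61, 131 in H4 with DMSO and 670 in H4 with GANT61. The H4 array with GANT61 stands far above the other 3, and the ES2 array with GANT61 is the next highest. The probe was detected on both arrays of each line, with detection p-values of 0.00130 and 0.00260 in ES2 and of 0 and 0.00779 in H4. The dimmer H4 signal therefore lay just inside the detection threshold. The deposited intensities, which still hold background, were 5.12-fold higher with GANT61 in H4 and 1.72-fold higher in ES2. After background correction and quantile normalization over the 4 arrays, the log2 ratio of GANT61 over DMSO was 3.25 in H4, or 9.48-fold higher, and 0.84 in ES2, or 1.79-fold higher. The H4 fold thus depends on the scale, and 9.48 is the highest value among the settings tried. Log2 ratios below are on this corrected scale, which spreads the ratios of dim probes, and folds on the deposited scale are named as such. Among all measured genes, with each gene taken at its brightest probe and its ratio as measured, IL24 ranked 10 from the highest of 11546 in H4 and 9 from the highest of 12213 in ES2. Because IL24 was picked by this ratio, these ranks are a description.

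On the probe ILMN_2407799 the intensity was 92.0 in ES2 with DMSO, 89.1 in ES2 with GANT61, 106 in H4 with DMSO and 248 in H4 with GANT61. Here the GANT61 array of H4 alone stands apart, and the ES2 arrays lie close together. The probe was detected on both ES2 arrays, where its log2 ratio was -0.05, and on 1 H4 array. The H4 intensities differed 2.34-fold on the deposited scale, and the log2 ratio on the corrected scale was 2.11. With the dimmer H4 array held at the lowest intensity among probes detected on both H4 arrays, the signal was at least 1.91-fold higher with GANT61 on the deposited scale.

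On the probe ILMN_1725814 the intensity was 63.1 in ES2 with DMSO, 77.2 in ES2 with GANT61, 97.2 in H4 with DMSO and 184 in H4 with GANT61. Neither ES2 array detected it and 1 of the H4 arrays did, so ES2 has no fold to give. In H4 the intensities differed 1.89-fold on the deposited scale, at least 1.41-fold by the same floor, and the log2 ratio on the corrected scale was 1.71. The array that detected a probe was taken to be the brighter of the 2.

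**Figure D1:**
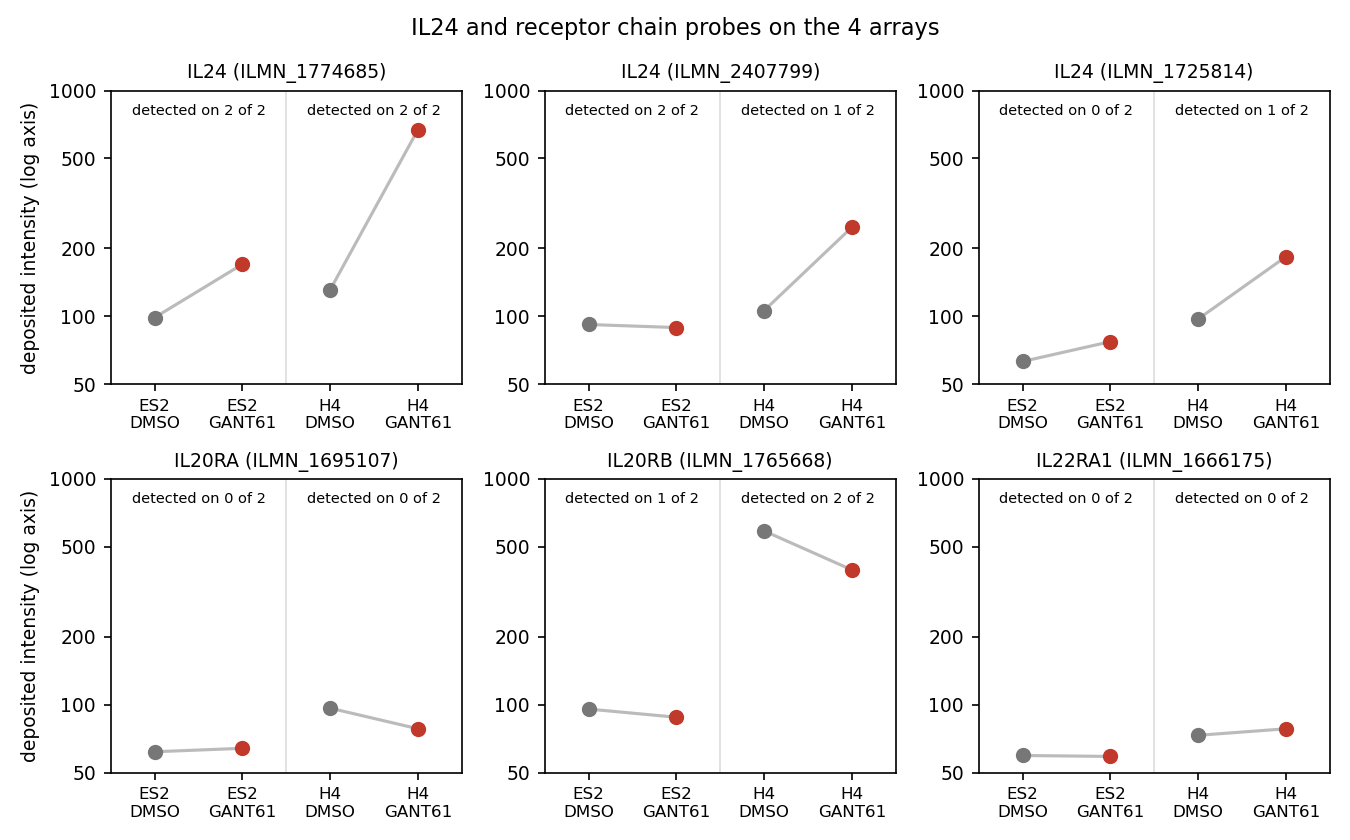
Deposited intensity (log axis) of the 3 IL24 probes and of the probes of IL20RA, IL20RB and IL22RA1, with 1 point per array, grey for DMSO and red for GANT61, joined within a line. On ILMN_1774685 the H4 array with GANT61 lies at 670 against 131 with DMSO, IL20RB lies at 396 against 589 in H4, and IL20RA and IL22RA1 stay under 100 on all 4 arrays and were detected on none.

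Counted at 2-fold, 1 of the 2 measured members, IL24, was called in H4, where 7.58% of genes differed at least 2-fold, and no member was called in ES2, where 0.0737% did. By probe, 3 of 3 detected IL24 probes were at least 2-fold higher on the corrected scale in H4, beside 3.95% of all detected probes, and 2 of 3 were on the deposited scale, where ILMN_1725814 fell short. Of these probes of 1 gene, ILMN_2407799 and ILMN_1725814 were each detected on 1 H4 array, and their ratios were counted without the floor. With the floor they were at least 1.91-fold and 1.41-fold higher on the deposited scale, which does not reach 2-fold. Taken by direction, 4.07% of genes in H4 and 0.0409% in ES2 were on the higher side at that threshold, and 3.51% and 0.0328% were on the lower side. None of the 2 detected IL24 probes reached 2-fold in ES2, beside 0.0303% of all detected probes. These counts come from the contrast by which IL24 was picked, and nothing is read from them. In ES2 the IL24 ratio was short of 2-fold, and median scaling in place of quantile normalization put it past 2-fold, at a log2 ratio of 1.02. On ILMN_1774685, the probe detected on all 4 arrays, the log2 ratio was larger in H4 than in ES2 by 2.41, a difference between lines that has no test.

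**Figure D2:**
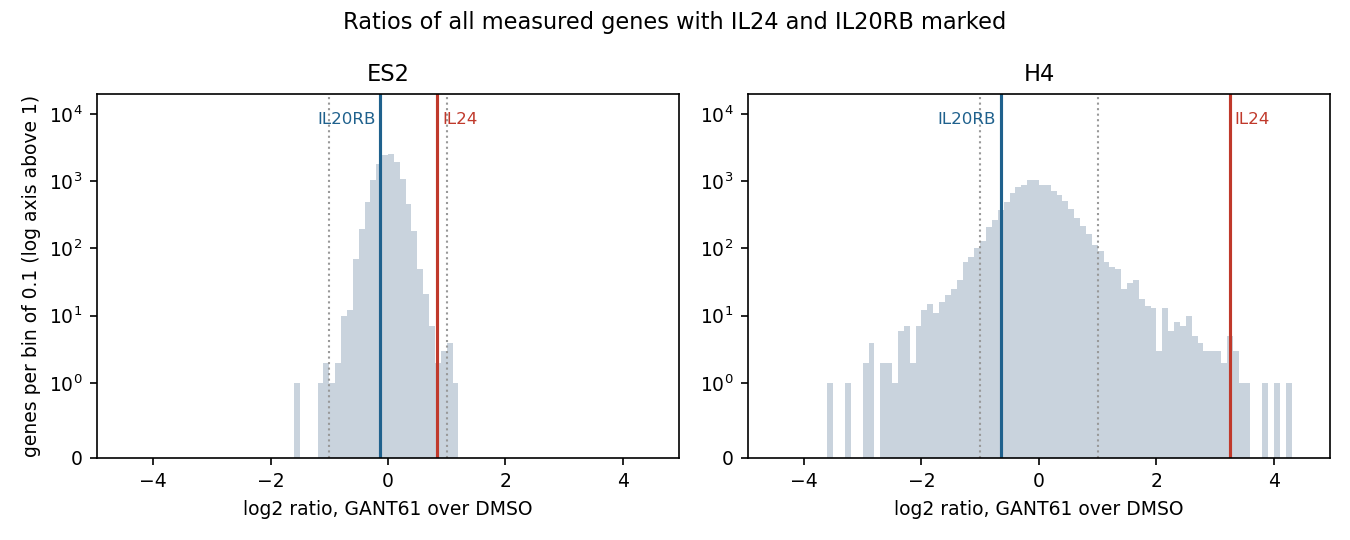
Number of genes (log axis above 1) by log2 ratio of GANT61 over DMSO, for genes detected on at least 1 array of the line, in ES2 and in H4. Dotted lines mark 2-fold. IL24 lies at 0.84 in ES2 and 3.25 in H4, and IL20RB at -0.13 and -0.65.

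In ES2 the 2 detected IL24 probes disagreed, whereas in H4 all 3 were higher with GANT61. IL24 was picked in part by the disagreement of its probes, so its place among other genes is a description and no test. The ES2 difference between those 2 probes was 0.89 in log2 ratio. Across 2545 genes for which both ES2 arrays detected at least 2 probes, the difference between the 2 brightest had a standard deviation of 0.203, and IL24 was the 1 gene with a difference that large. Across the 2884 genes with 2 or more probes detected on at least 1 ES2 array, 3 had a difference that large, IL24 among them. In H4 the same pair of probes differed by 1.13, and 45 of 2574 genes, or 1.75%, differed by as much. Of 102 such genes whose brightest probe was at least 2-fold higher in H4, 69 had the next probe at least 2-fold higher too. Since ILMN_2407799 was detected on 1 H4 array, the IL24 difference of 1.13 rests in part on a signal that was not detected.

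**Figure D3:**
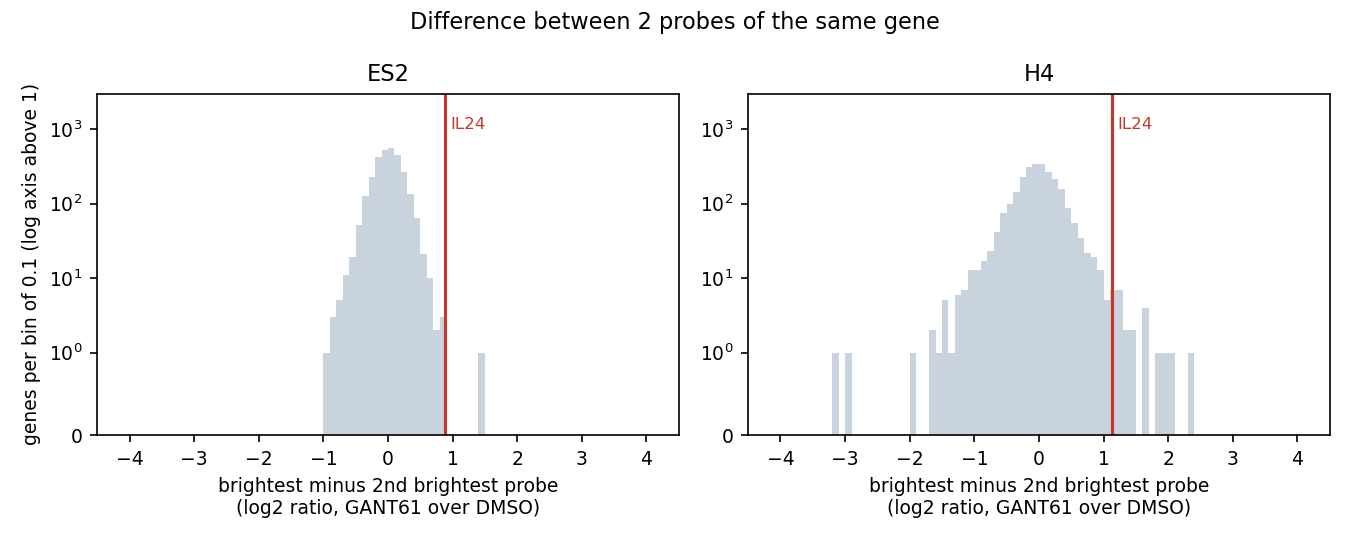
Number of genes (log axis above 1) by the difference in log2 ratio between the brightest and the 2nd brightest probe, for genes with at least 2 probes detected on 1 array or more of the line. The IL24 difference of 0.89 lies at the edge of the ES2 distribution, and its difference of 1.13 lies in the outer part of the wider H4 distribution.

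The disagreement can also be read in intensity, which no background offset or log scale affects. In H4 the intensity with GANT61 exceeded that with DMSO by 539 on ILMN_1774685, by 142 on ILMN_2407799 and by 86.4 on ILMN_1725814. In ES2 the differences on the 2 detected probes were 71.3 and -2.83. ILMN_1725814, which neither ES2 array detected, differed by 14.1 there. Among 4585 other probes within 10% of ILMN_2407799 in mean ES2 intensity, the middle 95% of differences ran from -18.5 to 18.2, which holds its -2.83. At its H4 proportion to ILMN_1774685, ILMN_2407799 would have differed by 18.8 in ES2, near the edge of that range. A rise of that proportion would thus have stood out little on this probe. None of 1503 probes like ILMN_1774685 had a difference in ES2 as high as its 71.3. Their middle 95% ran from -32.7 to 31.5. For ILMN_1725814, the middle 95% of like probes in ES2 ran from -13.8 to 13.8, and 2.28% were as high as its 14.1. Since IL24 was picked by its ratio and by the disagreement of its probes, its place among like probes is a description and no test.

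IL24 lies on chromosome 1 at chr1:206897443-206904139 in GRCh38.p14, on the plus strand, and RefSeq lists 4 curated transcripts for it. Which exon or transcript each probe matches was not analysed here. The last 823 bases of the gene overlap FCMR, the Fc receptor for IgM, which runs on the opposite strand. The FCMR probe read 70.7 and 76.0 in ES2 and 81.4 and 132 in H4, DMSO first, and was detected on no array.

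The 250 bases before the RefSeq start are shown for the 2 members with a detected signal, IL24 on the plus strand at chr1:206897193-206897442 and IL20RB on the plus strand at chr3:136957733-136957982, both 5′ to 3′ and credited to RefSeq with build GRCh38.p14. Capitals mark the motif matches.
IL24: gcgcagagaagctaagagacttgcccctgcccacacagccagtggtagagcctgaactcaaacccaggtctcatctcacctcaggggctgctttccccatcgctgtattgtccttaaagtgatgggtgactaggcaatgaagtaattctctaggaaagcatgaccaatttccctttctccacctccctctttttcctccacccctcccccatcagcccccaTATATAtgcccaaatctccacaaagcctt
IL20RB: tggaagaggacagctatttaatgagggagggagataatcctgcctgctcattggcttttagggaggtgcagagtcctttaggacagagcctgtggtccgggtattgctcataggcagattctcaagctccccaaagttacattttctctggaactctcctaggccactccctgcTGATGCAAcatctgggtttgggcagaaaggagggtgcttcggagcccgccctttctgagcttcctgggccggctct

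Both strands were searched for the AP-1 motif TGANTCA, the C/EBP motif TTNNGNAA, the joint ATF4 and C/EBP motif TGATGNAA, the STAT motif TTCNNNGAA, the GLI motif GACCACCCA, the NF-kB motif, the TATA box as TATAAA and its variant form TATATA, and no match overlapped another. The IL24 window held TATATA, from 29 to 24 bases before the start, a run that 3.73% of 35116 RefSeq promoter windows of that length hold. The IL20RB window held TGATGNAA, from 76 to 69 bases before the start, which 3.14% of the windows hold. No other motif of the set matched in either window. For those absent, the share of windows with a match was 6.57% for AP-1, 33.2% for C/EBP, 6.57% for STAT, 0.199% for GLI, 5.07% for NF-kB and 10.7% for TATAAA. A match is a run of letters and shows no binding.

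Of the receptor chains, IL20RB was the one with a signal. IL20RB, the chain common to both IL24 receptors, lies at chr3:136957983-137011085. Its probe read 95.7 in ES2 with DMSO, 88.1 in ES2 with GANT61, 589 in H4 with DMSO and 396 in H4 with GANT61. Both H4 arrays stand well above both ES2 arrays, though the authors normalized the lines separately. In H4 it was detected on both arrays, and the log2 ratio was -0.65, or 1.57-fold lower with GANT61, and 1.49-fold lower on the deposited scale. Among 1098 other probes within 0.25 of its mean H4 signal on the log2 scale, 97, or 8.83%, had a ratio as low. In ES2 its detection p-values were 0.00390 and 0.0117, so it was detected on 1 array. Its log2 ratio there was -0.13, at least 1.08-fold lower with the floor on the deposited scale, and 21.5% of 6262 like probes were as low.

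IL20RA, the chain that pairs with IL20RB for IL19, IL20 and IL24, lies at chr6:136999971-137044965. Its probe read 61.9 and 64.2 in ES2 and 96.6 and 78.3 in H4, DMSO first, with detection p-values from 0.573 to 0.822. IL22RA1, the chain shared with the receptor for IL22, lies at chr1:24119771-24143140. Its probe read 59.6 and 59.1 in ES2 and 73.3 and 78.3 in H4, with detection p-values from 0.755 to 0.884. Neither partner of IL20RB was thus detected on any of the 4 arrays, and neither has a ratio to report. Each rests on 1 probe, and a signal below the array's background sets no limit on the protein.

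Among the remaining class II cytokine receptor chains, most had a ratio below 0 in H4. Of 8, 5 were detected in each line, 2 higher and 3 lower in ES2 and 1 higher and 4 lower in H4. Their median log2 ratio was -0.03 in ES2 and -0.15 in H4, against 0.00313 and -0.05 for the median of all genes. None reached 2-fold, beside 0.0737% of all measured genes in ES2 and 7.58% in H4. IL10RB, the second chain of the IL-10 and IL-22 receptors, was 1.31-fold lower in H4 with a log2 ratio of -0.39, and its other probe gave -0.40. IFNGR1, the ligand-binding chain of the interferon gamma receptor, had a log2 ratio of -0.50 in H4 and 0.28 in ES2. IFNGR2, its partner chain, had 0.64 in H4 and -0.04 in ES2. IL10RA, IL22RA2 and IFNLR1 were detected on no array.

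The related ligands were nearly silent. Of 8 genes of the IL-10 family other than IL24, IL10 was detected, on all 4 arrays, with log2 ratios of 0.16 in ES2 and 0.06 in H4. That rests on 1 of its 2 probes, since the other was detected on no array. IL19 and IL20, which share IL24's receptors, and IL22, IL26, IFNL1, IFNL2 and IFNL3 were detected on none. Among 39 genes named as interleukins, 10 were detected on at least 1 ES2 array and 11 on at least 1 H4 array. In H4 IL24 had the highest ratio of these 11, followed by IL6 with a log2 ratio of 2.39 and IL11, a cytokine of the IL-6 family, with 1.59. In ES2 IL24 had the highest ratio of the 10, followed by IL11 with 0.26 and the inflammatory cytokine IL1B with 0.25. The ranks of IL24 come from the contrast by which it was picked.

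Below the receptors, none of the measured kinase and STAT genes reached 2-fold. Of all measured genes, 7.58% in H4 and 0.0737% in ES2 differed at least 2-fold. With this few genes, nothing is read from that count. All 7 genes of the JAK and STAT list were detected in ES2, 3 higher and 4 lower, and their median log2 ratio was -0.03. In H4, 4 of the 7 were detected, 1 higher and 3 lower (median -0.11), and JAK2, STAT5A and STAT5B were detected on no H4 array. JAK1, a kinase that works at these receptors, read 270 and 343 in ES2 and 385 and 428 in H4, DMSO first, and its log2 ratio was 0.36 in ES2 and 0.18 in H4. STAT3, the main transcription factor under these receptors, read 199 and 195 in ES2 and 509 and 325 in H4. Its log2 ratio was -0.78 in H4, or 1.72-fold lower (1.57-fold on the deposited scale), but its other 2 probes gave -0.16 and -0.37. In ES2 the 3 STAT3 probes gave -0.03, 0.28 and -0.24.

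Genes that STAT3 is known to induce went both ways in H4. Of 10 listed, 8 were measured there, 5 higher and 3 lower, and their median log2 ratio was 0.15. CCND1, the cyclin D1 of the G1 phase, was the gene at least 2-fold higher, at 1127 with DMSO and 6805 with GANT61, 6.04-fold on the deposited scale and 6.95-fold on the corrected scale, and read 6981 and 6858 in ES2. BCL3, a nuclear partner of NF-kB, was the gene at least 2-fold lower, at 293 with DMSO and 141 with GANT61, 2.08-fold on the deposited scale and 3.02-fold on the corrected scale. SOCS3, the feedback inhibitor that STAT3 induces, read 161 and 174 in H4 and 115 on both ES2 arrays, a log2 ratio of 0.18 in H4, and its other probe was detected on no array. SOCS2 was lower in both lines, with log2 ratios of -0.44 in H4 and -0.29 in ES2, although its other probe gave 0.10 in ES2. The transcription factor MYC had a log2 ratio of 0.95 in H4, with 0.96 on the other probe, which 1 H4 array detected, and the survival gene BCL2L1 had 0.84, with 0.45 on the other probe. In ES2 all 8 measured genes had a ratio below 0, SOCS3 by the least, with a median of -0.17. None of these reached 2-fold, beside 0.0737% of all measured genes in ES2. The median of all genes was 0.00313 in ES2 and -0.05 in H4. SOCS1 and CISH were detected on no array.

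The partners and effectors ascribed to IL24 inside cells were mostly higher in H4. Of 11 listed, 9 were measured in H4, 8 higher and 1 lower, and their median log2 ratio was 0.38. In ES2, 8 were measured, 5 higher and 3 lower, with a median of 0.07. The median of all genes was -0.05 in H4 and 0.00313 in ES2. The listed genes BCL2 and DDIT3 had log2 ratios of 0.38 and 0.14 in H4 and of 0.40 and -0.39 in ES2. Among all measured genes, 4.07% were at least 2-fold higher in H4 on the corrected scale. GADD45A, a stress gene reported to be induced by IL24, was the listed gene at least 2-fold higher there, by 2.12-fold. Its intensities of 1151 with DMSO and 2247 with GANT61 differ 1.95-fold, so on the deposited scale it falls short of 2-fold. Its other probe gave a log2 ratio of 0.92 there. In ES2 GADD45A read 1170 and 758, 1.54-fold lower on the deposited scale, with -0.32 on the other probe. GADD45B likewise had a log2 ratio of 0.63 in H4 and -0.51 in ES2. HSPA5, the endoplasmic reticulum chaperone BiP to which IL24 binds, was higher with GANT61 in both lines, with log2 ratios of 0.62 in ES2 and 0.43 in H4. The kinase EIF2AK2, known as PKR, had log2 ratios of 0.09 in H4 and 0.06 in ES2. EIF2AK3, counted as higher in H4, was detected on 1 H4 array and was at least 1.09-fold higher on the deposited scale.

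Of 10 AP-1 and C/EBP factors, families reported to act at the IL24 promoter, 7 were measured in H4 and 8 in ES2. In H4, 6 were higher and 1 lower, and the median log2 ratio was 0.35, against -0.05 for the median of all genes. FOSL1, the AP-1 subunit Fra-1, read 129 with DMSO and 266 with GANT61 in H4 and was at least 2.05-fold higher on the deposited scale. It was detected on 1 H4 array, as was FOSB, which was at least 1.08-fold higher on that scale. CEBPD, a C/EBP factor of the acute phase response, was lower in H4, at 1747 with DMSO and 545 with GANT61, 3.204-fold on the deposited scale and a log2 ratio of -1.85 on the corrected scale. JUN had log2 ratios of 0.36 in H4 and -0.21 in ES2, and CEBPB had 0.33 and -0.52. In ES2, 1 was higher and 7 lower, with a median of -0.20 against 0.00313 for all genes, and FOSL1 read 2529 and 2375.

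The genes beside IL24 on chromosome 1 were not all detected. Of 10, 5 were measured in each line. In H4 all 5 were higher, with a median log2 ratio of 0.54, and in ES2 4 were higher and 1 lower, with a median of 0.16. The medians of all genes were -0.05 in H4 and 0.00313 in ES2. DYRK3, a kinase that helps dissolve stress granules, was at least 1.94-fold higher in H4 on the deposited scale, at 126 with DMSO and 252 with GANT61, and the probe of DYRK3 detected on both H4 arrays gave a log2 ratio of 0.98. MAPKAPK2, the kinase under p38, had a log2 ratio of 0.54 in H4 and -0.47 in ES2. YOD1, a deubiquitinase, had 0.62 and 0.01, and PFKFB2, a regulator of glycolysis, had 0.21 and 0.29. The nearest listed genes, IL20 before IL24 and FCMR after it, were detected on no array.

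**Figure D4:**
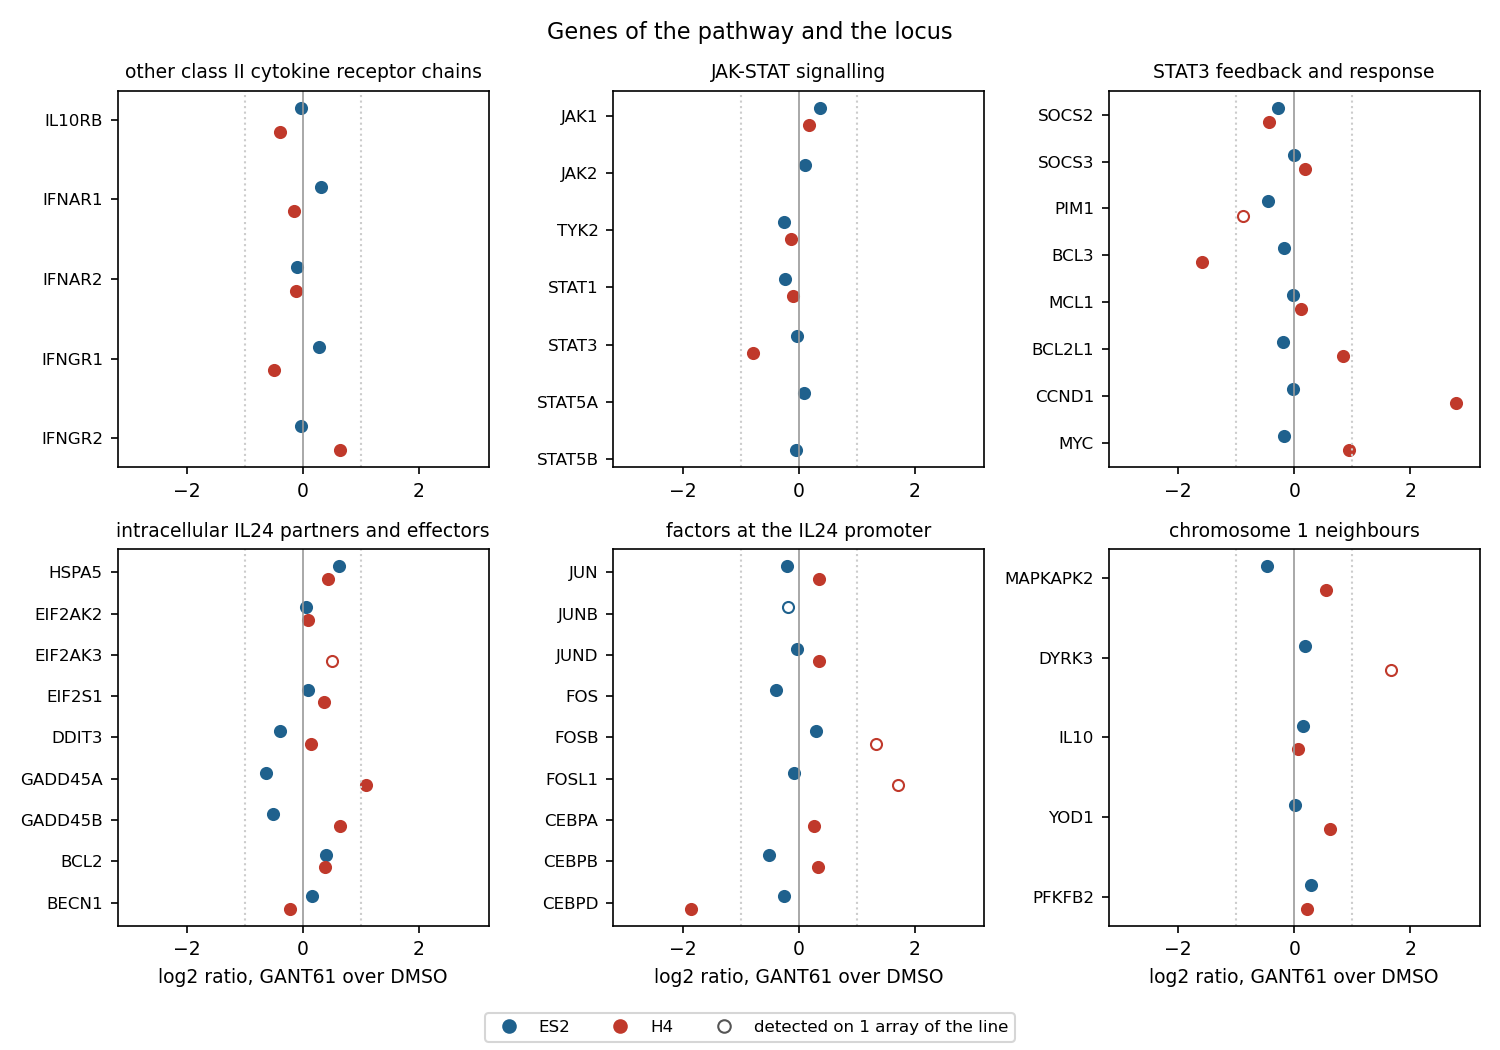
Log2 ratio of GANT61 over DMSO for listed genes detected in ES2 (blue) or H4 (red), with open circles for genes detected on 1 array of the line and dotted lines at 2-fold. Of all measured genes, 7.58% in H4 and 0.0737% in ES2 differed at least 2-fold on the corrected scale. CCND1, GADD45A, FOSL1, FOSB and DYRK3 lie past 2-fold on the higher side in H4 on the corrected scale, of which GADD45A, FOSB and DYRK3 fall short on the deposited scale, and BCL3 and CEBPD on the lower side, whereas no ES2 point passes 2-fold.

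The genes whose pattern was most like that of IL24 were sought over the 4 arrays among 10228 genes measured in both lines, by the Euclidean distance between log2 signals centred on each gene's mean. The median distance was 2.72. The nearest was RNY4, a small cytoplasmic Y RNA, at 0.358, with 98.2 and 134 in ES2 and 119 and 691 in H4, DMSO first. Then came PSG5, a pregnancy-specific glycoprotein, at 0.455, and GPNMB, a lysosome-associated glycoprotein, at 0.598. GPNMB read 105 and 151 in ES2 and 157 and 919 in H4. PSG3 followed at 0.611 and the imprinted gene PHLDA2 at 0.663. RNY4, PSG5 and PSG3 were each detected on 1 H4 array, and PSG5 on 1 ES2 array. Their distances thus rest in part on signals that were not detected. All 5 were brightest on the H4 array with GANT61, as IL24 was, which follows from how they were chosen. Probes of the PSG genes and of Y RNAs can share signal with near-identical copies.

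Genes higher in both lines were counted. Of 10229 genes measured in both, 405 were at least 2-fold higher in H4, and 214 of these had a ratio above 0 in ES2. The median ES2 log2 ratio of all measured genes was 0.00313, so genes above and below 0 were about equally frequent there. In ES2, 24 of the 10229 were at least 1.5-fold higher. Both limits were met by 7 genes, which is 1.73% of the H4 genes and 29.2% of the ES2 genes. Those 7 were IL24, ALDOC, an aldolase of glycolysis, MMP3, a matrix metalloproteinase, NEU1, the lysosomal sialidase, TM4SF19, MAP3K7CL and the 5S ribosomal RNA gene RNA5S9. The 1.5-fold limit was chosen after the values were seen. Of the genes measured in both lines, none other than IL24 was as high as IL24 in each. Because IL24 was picked by these ratios, that place is a description.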

How the data were processed

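Biotin-labelled cRNA made from total RNA was hybridized to the arrays, per the labels' protocols. The software that read them is not given in the sources used here. The authors' deposited intensity is on a linear scale for 47229 probes. Sorted values of a line's 2 arrays lay within a median of 0.00457% (ES2) or 0.0103% (H4) of each other, so the values carry a quantile normalization within each line. The detection p-value is deposited per the file headers beside 4 signal columns that name no treatment. Those 4 columns were not used.

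Starting from these intensities, limma 3.58.1 in R 4.3.3 subtracted background by normexp (saddle-point, offset 16) and applied quantile normalization to all 4 arrays together, and log2 was taken. The steps were tested on simulated data in which only probes well above background were changed and all arrays had the same mean background. That test therefore does not cover the ratios of dim probes. A gene, named through RefSeq of GRCh38.p14, is represented by its brightest probe and was measured when that probe was detected on at least 1 array of the line at p under 0.01. An offset pulls ratios of dim probes toward 0. A change common to all genes is lost in quantile normalization. The floor for a probe detected on 1 array is the lowest deposited intensity among probes detected on both. The named genes are the members, every gene of short lists on the receptors, signalling, effectors, promoter factors and neighbours, and the 5 genes nearest in pattern, except 3 listed genes that are not reported here and were left out of the list counts. Members, lists and motifs were chosen with earlier results of these data known. The alternatives tried are background correction, its offset, the scaling, the authors' scale, the detection limit, no filter and the mean of probes.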

Additional observations from a re-analysis of the deposited data

Results flagged for a closer look

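Each of these genes had a log2 ratio of GANT61 over DMSO of opposite sign in the lines. In each line it exceeded in size the spread of 1 probe's ratio (a standard deviation of 0.143 in ES2 and 0.222 in H4). That spread comes from how far probes of the same gene disagree on the same arrays of a line. It holds no variation between arrays or cultures, so passing it does not show a response beyond noise. In ES2 the ratios of MYC, BCL2L1 and JUN lay closest to it. The difference between the lines was not tested, since each line has 1 array per treatment. GADD45A had -0.64 in ES2 and 1.08 in H4, and GADD45B had -0.51 and 0.63. CEBPB had -0.52 and 0.33, and JUN had -0.21 and 0.36. MAPKAPK2 had -0.47 and 0.54. BCL2L1 had -0.20 and 0.84, and MYC had -0.17 and 0.95. IFNGR1 went the other way, with 0.28 in ES2 and -0.50 in H4.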

How the results depend on the processing

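A value is said to have moved here when it changed by more than the spread of 1 probe's ratio in its line, and a count when it changed by more than 1.5 times. No value changed sign. The IL24 log2 ratio in H4 of 3.25 became 2.92 under median scaling, 2.77 when the offset was 50, 2.71 without background correction, 2.36 on the authors' scale and 2.35 as the mean of the detected probes. In ES2 the ratio of 0.84 became 1.02 under median scaling, 0.63 when the offset was 50, 0.60 without background correction and 0.39 as the mean of the detected probes. Over the 4 alternatives that apply to single probes, the H4 ratio of ILMN_2407799, 2.11, ran from 1.23 to 1.80, and that of ILMN_1725814, 1.71, from 0.92 to 1.48, under 2-fold on the authors' scale. The difference between the IL24 probes in ES2, 0.89, became 1.09 under median scaling, 0.66 when the offset was 50 and 0.64 without background correction, and in H4 it ran from 1.12 to 1.20. The IL20RB ratio moved under none of the 4 alternatives that apply to single probes. Over these it ran from -0.64 to -0.57 in H4 and from -0.18 to -0.09 in ES2. The remaining alternatives concern detection or the mean of probes and cannot change the ratio of its 1 probe. Genes at least 2-fold different in ES2 numbered 9, and 2 without background correction, 2 with an offset of 50, 4 on the authors' scale and 94 without the detection filter. In H4 they numbered 875, and 567 without background correction and 437 on the authors' scale. A background offset shrinks ratios of dim probes by its construction. The cause of the other moves was not tested. No paired analysis was possible because every sample carries replicate number 1, so the groups share fewer than 2 numbers. Signals near the detection limit bound what can be said of IL20RA, IL22RA1 and the DMSO level of IL24.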
